A study of Mus musculus with 60 samples.

Results

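RNA of POLE4-depleted and control mouse embryonic stem cells (mESCs) was compared after 60 h of retinoic acid (RA), the last time point (T60) of a differentiation course. The comparison held 6 of the 60 libraries of the series, which were chosen by their labels: 3 POLE4-dTAG libraries labelled dTAG and T60 (dPOLE4) and 3 POLE4-dTAG libraries labelled DMSO and T60 (Ctrl), all with wild-type (WT) MCM2. Both groups are the POLE4-dTAG line, made from individually picked clones of E14JU mESCs, in which a degron tag is fused to the POLE4 protein, so that Ctrl carries the tagged allele too. dPOLE4 cells received 1 µM dTAG, a small molecule that sends the tagged protein to degradation, and Ctrl cells received the solvent DMSO, for 24 h in medium with serum and LIF. RA was then added without LIF. Whether dTAG was kept in the medium during the 60 h of RA was not given in the sources used here. The study calls the 3 libraries of a group biological replicates, and the labels do not say whether they came from separate cultures, so p-values measure the spread between these libraries, which may be technical. Total RNA was depleted of rRNA and sequenced by strand, so that unspliced and repeat RNA was counted along with mRNA. Cells with the MCM2-2A mutation, cells kept in serum and LIF for 96 h, and the earlier time points T0, T12 and T24 serve below only to place the T60 values.

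POLE4 is a small histone-fold subunit of DNA polymerase epsilon, the enzyme that copies the leading strand, and it helps to pass parental histones to that strand behind the fork. MCM2, part of the replicative helicase, helps to pass them to the lagging strand, and the 2A mutation removes its histone binding. RA binds nuclear receptors and turns off the pluripotency program of mESCs, while Hox genes, RA-degrading enzymes and then neural progenitor genes come on. The comparison asks what the loss of POLE4 from the cells before RA addition changes in the RNA of the differentiated culture.

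The 6 libraries held between 10461077 and 21720847 counted reads, and the 3 dPOLE4 libraries were, on average, the deeper ones. Levels are given as CPM, the counts of a feature relative to all counts of its library after scaling of the libraries by TMM. The RNA of Pole4 itself (ENSMUSG00000030042, chromosome 6 from 82618992 to 82705365 in mm10) checks no label, since dTAG acts on the protein. It lay at 24.1, 22.7 and 24.2 CPM in Ctrl and at 24.6, 26.9 and 22.6 CPM in dPOLE4, and the groups overlapped. Mcm2 lay at 287 ± 18.2 CPM (SD, n = 3) in Ctrl and 284 ± 7.42 CPM in dPOLE4. Differentiation had taken place in both groups. In Ctrl, Pou5f1, the pluripotency factor OCT4, went from 838 ± 19.3 CPM at T0 to 30.1 ± 6.59 CPM at T60 (these levels over time were scaled over the 24 WT libraries of T0 to T60). In dPOLE4 Pou5f1 lay at 34.7 ± 5.48 CPM at T60 on that scale. No chromosome shifted as a block, with medians of the log2 fold changes of genes between -0.025 (chromosome 10) and 0.012 (chromosome X).

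At T60, 33 of 17116 tested features (genes and repeat subfamilies), or 0.193%, were differentially expressed (DE) between dPOLE4 and Ctrl. DE means an adjusted p below 0.01 in edgeR's quasi-likelihood test and a log2 fold change larger in size than 0.58. Lower in dPOLE4 were 23 genes (0.134% of the tested features). By p, Igfbp5, Igfbp4 and Tnc stood first among them. Higher were 7 genes and 3 retroviral repeat subfamilies (together 0.0584%). The changes were small, and only 5 of the 33 had a log2 fold change beyond 1 in size. The largest upward one was 0.99, for Duoxa2. In all 33 the 3 dPOLE4 libraries lay outside the range of the 3 Ctrl libraries, which 19.3% of all tested features also did. The number of calls rested on the dPOLE4 libraries: without replicate 1, 2 or 3 of dPOLE4 it was 6, 16 or 8, and without a Ctrl library 32 to 41. Igfbp5, Tnc, MMVL30-int and RLTR6_Mm were DE in all 6 of these fits, and no DE feature changed sign in any. A test against a change of 1.5-fold as the null (glmTreat) called 0 features.

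**Figure D1:**
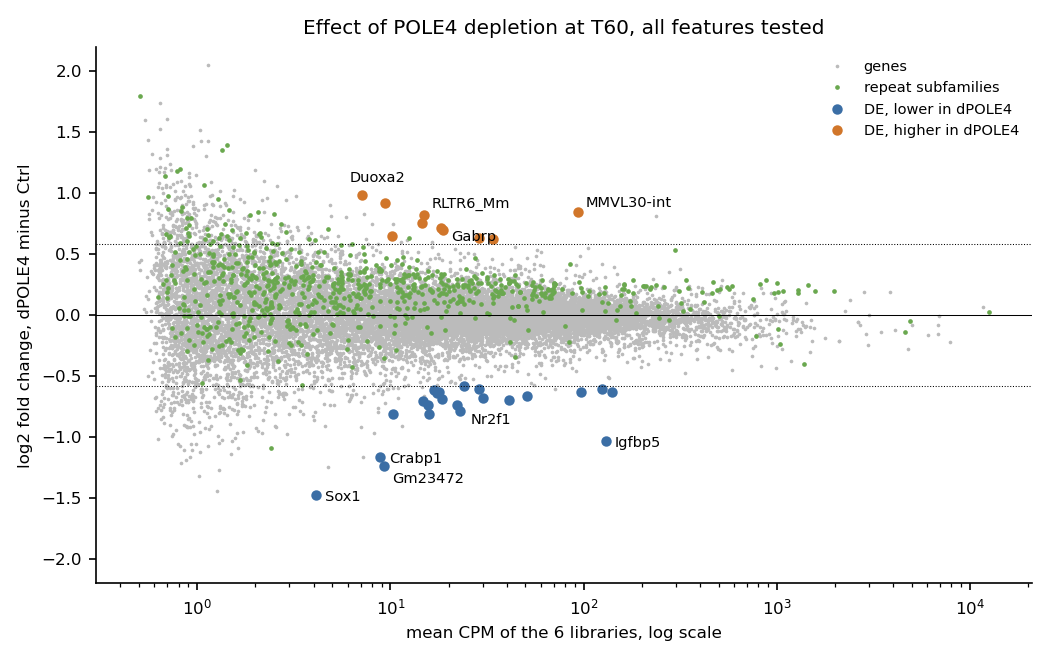
Log2 fold change between dPOLE4 and Ctrl at T60 (vertical) against the mean CPM of the 6 libraries (horizontal, log scale) for 17115 of the 17116 tested features, with genes in grey, repeat subfamilies in green, DE features in blue (22 of the 23 lower) and orange (10 higher), and dotted lines at -0.58 and 0.58. The DE features sit at the edge of a narrow band of genes, and most repeat subfamilies lie above 0.

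Of the neural list of 48 progenitor and neuronal genes 33 could be tested, and 5 of them were DE, all lower in dPOLE4. That is 15.2%, beside 0.193% of all tested features. The list was chosen with earlier results of these data known, so this share is not an independent result. Sox1, a marker of the earliest neural progenitors (chromosome 8 from 12395295 to 12400126), lay at 8.38, 5.77 and 3.89 CPM in Ctrl and at 2.76, 2.23 and 1.81 CPM in dPOLE4. The Ctrl libraries were spread widely, and the lowest of them still lay above the highest dPOLE4 library (log2 fold change -1.47, SE 0.26, adjusted p = 0.00856). Pax6, a paired-box factor of the neural tube and eye (chromosome 2 from 105668900 to 105697364), was measured at 23.4, 23.8 and 21.5 CPM in Ctrl against 14.6, 14.5 and 13.7 CPM in dPOLE4. Here both groups were tight, and Pax6 fell by 0.69 on the log2 scale (SE 0.090, adjusted p = 0.0014).

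Nr2f1, the orphan receptor COUP-TF1, which patterns the neural plate (chromosome 13 from 78188973 to 78199757), lay at 33.2, 28.1 and 25.8 CPM in Ctrl and at 14.9, 18.3 and 17.3 CPM in dPOLE4, a log2 fold change of -0.79 (SE 0.11, adjusted p = 0.00174). Crabp1, which binds RA in the cytoplasm (chromosome 9 from 54764748 to 54773110), lay at 14.3, 11.6 and 10.99 CPM in Ctrl and at 4.01, 6.10 and 6.20 CPM in dPOLE4, a log2 fold change of -1.16 (SE 0.16, adjusted p = 0.00187). The library dPOLE4 replicate 1 was the lowest of the 6 for both Nr2f1 and Crabp1. Sox11, a SOX factor of immature neurons, reached an adjusted p of 0.00268 with a log2 fold change of -0.43, below the fold threshold. Of the 33, 26 were lower and 7 higher in dPOLE4, with a median log2 fold change of -0.37 beside 0.0017 over all features. The summed level of all 48 listed genes, tested or not, was 849 to 900 CPM in Ctrl and 694 to 723 CPM in dPOLE4. Nes, the intermediate filament of neural progenitors, had a log2 fold change of -0.12 (adjusted p = 0.315), and Msi1 one of -0.31 (adjusted p = 0.0266). In bulk RNA, fewer cells of a type and less RNA per cell cannot be told apart.

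**Figure D2:**
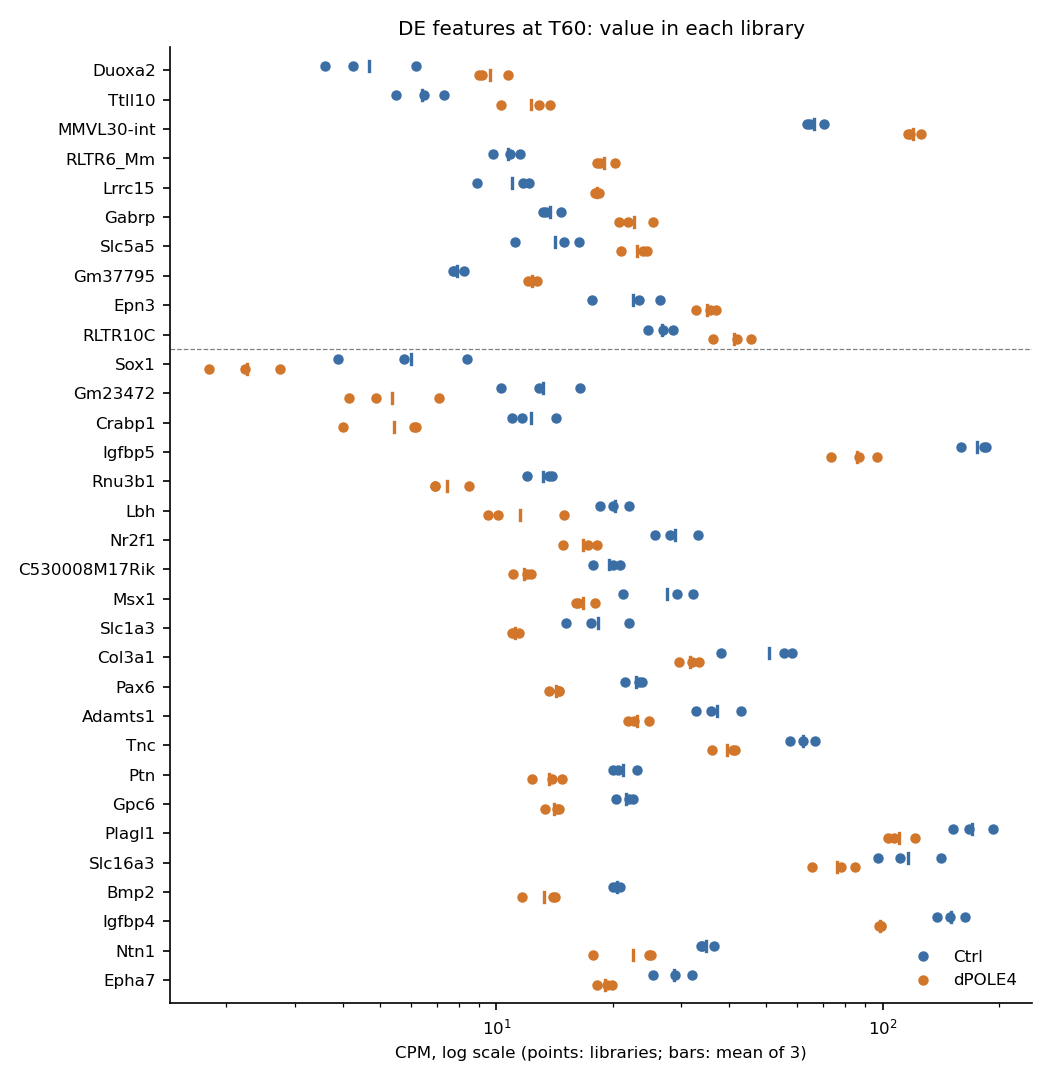
CPM in each of the 6 libraries (horizontal, log scale) for 32 of the 33 DE features, with Ctrl in blue, dPOLE4 in orange, a point per library and a bar at the mean of 3. Above the dashed line are the 10 features that were higher in dPOLE4, and below it 22 of the 23 that were lower, and in no feature do the colours overlap.

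Among the lower genes outside the neural list, Igfbp5, which binds insulin-like growth factors outside the cell (chromosome 1 from 72857932 to 72874884), had the lowest p of any gene. It lay at 160, 183 and 185 CPM in Ctrl and at 73.5, 87.0 and 96.6 CPM in dPOLE4, a log2 fold change of -1.03 (SE 0.084, adjusted p = 1.56e-05). Its relative Igfbp4 (chromosome 11 from 99041244 to 99054392) lay at 163, 149 and 138 CPM in Ctrl and between 98.1 and 98.8 CPM in the 3 dPOLE4 libraries, and fell by 0.61 on the log2 scale (adjusted p = 0.000217). Tnc, the matrix glycoprotein tenascin-C (chromosome 4 from 63959785 to 64047015), lay at 66.8, 62.0 and 57.4 CPM in Ctrl and at 40.9, 36.2 and 41.6 CPM in dPOLE4, a log2 fold change of -0.66 (SE 0.076, adjusted p = 0.000756). For all of these, the gap between the groups was wider than the range within either.

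Of the matrix and guidance list, 39 of 40 genes were tested, and 3 were DE (7.69%, beside 0.193% of all tested features). All 3 were lower, Tnc, the ephrin receptor gene Epha7 (log2 fold change -0.58, adjusted p = 0.00586) and Ntn1, which encodes the axon guidance cue netrin-1 (log2 fold change -0.60, adjusted p = 0.00951). Robo2, a receptor for Slit guidance cues, fell short of the fold threshold at -0.55 (adjusted p = 0.00637). In this list 31 genes were lower and 8 higher, and the median was -0.17. Of the fibroblast and mesenchyme list, 13 of 14 tested genes were lower (median -0.22). Its DE gene was Col3a1, a fibrillar collagen gene, with 58.3, 55.5 and 38.2 CPM in Ctrl and 33.4, 29.6 and 32.0 CPM in dPOLE4 (log2 fold change -0.69, adjusted p = 0.00725). Ctrl replicate 3 came closest to the dPOLE4 values. Col1a2 and Pdgfra, a collagen gene and the PDGF receptor alpha gene, had adjusted p values of 0.00134 and 0.00742 and log2 fold changes of -0.50 and -0.56, below the fold threshold. The summed level of the list was 2231 to 2562 CPM in Ctrl and 2006 to 2093 CPM in dPOLE4.

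Of the signalling genes, Msx1, a homeobox gene of the neural plate border and neural crest that responds to BMP (chromosome 5 from 37820485 to 37824583), lay at 32.2, 29.3 and 21.3 CPM in Ctrl and at 16.1, 16.3 and 18.0 CPM in dPOLE4, a log2 fold change of -0.73 (SE 0.12, adjusted p = 0.00676). Bmp2, a BMP ligand gene (chromosome 2 from 133552159 to 133562885), lay at 20.4, 20.04 and 20.9 CPM in Ctrl and at 11.7, 14.2 and 14.0 CPM in dPOLE4 (log2 fold change -0.61, adjusted p = 0.00586). Bmp2 was the single DE gene among 41 tested Nodal, TGF-beta and BMP pathway genes, of which 27 were lower (median -0.077). Of 42 tested Wnt pathway genes 32 were lower (median -0.13) and none was DE, and the secreted Wnt inhibitor gene Sfrp1 reached -0.50 (adjusted p = 0.00586). None of 21 Notch, 24 FGF and ERK or 13 Hedgehog pathway genes was DE, while 15, 17 and 12 of them were lower (medians -0.18, -0.064 and -0.11). The groups did not overlap in summed level for the Hedgehog list (962 to 986 CPM in Ctrl, 833 to 877 CPM in dPOLE4) or the Wnt list (2688 to 2770 CPM in Ctrl, 2549 to 2619 CPM in dPOLE4).

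Of the other lower genes, Plagl1, an imprinted zinc finger gene that slows cell growth (chromosome 10 from 13060504 to 13131694), lay at 167, 193 and 152 CPM in Ctrl and at 103, 107 and 121 CPM in dPOLE4 (log2 fold change -0.63, adjusted p = 0.0014). It was the 1 DE gene of 33 tested imprinted genes (median -0.090), and Mest, also imprinted, had a log2 fold change of -0.38 (adjusted p = 0.00586). Lbh, a transcriptional cofactor gene of limb and heart, and Slc1a3, the glial glutamate transporter gene, had log2 fold changes of -0.81 and -0.70. Adamts1, Gpc6, Ptn and Slc16a3, which encode a matrix protease, a heparan sulfate proteoglycan, a heparin-binding growth factor and a lactate exporter, had log2 fold changes between -0.63 and -0.68, and C530008M17Rik one of -0.74. DESeq2 did not call Slc16a3 (adjusted p = 0.0551). Of these, Igfbp4, Adamts1, Gpc6, Ptn and Slc16a3 lie outside the rule for named genes and were chosen after their values were seen. The small RNA genes Rnu3b1, a U3 snoRNA gene (ENSMUSG00000098943, log2 fold change -0.81), and Gm23472, an snRNA gene (log2 fold change -1.24), belong to families of near-identical copies among which reads may be split, so their values are uncertain. A second Rnu3b1 entry at the same position (ENSMUSG00000105025) had a log2 fold change of -0.56 and was not DE (adjusted p = 0.0567).

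Among the higher features, MMVL30-int stood first by p. MMVL30-int, the internal part of the VL30 retroelements, lay at 70.4, 64.7 and 63.6 CPM in Ctrl and at 126, 117 and 117 CPM in dPOLE4, a log2 fold change of 0.85 (SE 0.061, adjusted p = 4.68e-06, the lowest of the comparison). RLTR6_Mm, the long terminal repeat (LTR) that flanks VL30, lay at 10.8, 11.5 and 9.82 CPM in Ctrl and at 18.5, 20.3 and 18.2 CPM in dPOLE4 (log2 fold change 0.83, SE 0.10, adjusted p = 0.00128). Both of these subfamilies thus rose by like factors, and for each the groups were far apart. RLTR6B_Mm, an LTR of like name, went the other way without being DE (log2 fold change -0.34, adjusted p = 0.1165). It lay at 49.25 CPM in Ctrl and 39.36 CPM in dPOLE4. RLTR10C, an LTR of the MMERVK10C retroviruses, lay at 24.7, 26.9 and 28.7 CPM in Ctrl and at 45.5, 36.3 and 41.9 CPM in dPOLE4 (log2 fold change 0.62, SE 0.092, adjusted p = 0.0033). The internal part MMERVK10C-int had an adjusted p of 0.0014 with a log2 fold change of 0.53, and RLTR6-int one of 0.00636 with 0.42, both under the fold threshold. A repeat subfamily sums reads from many genomic copies, and reads of multiple alignments were shared out among them, so these values have no single position.

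The 3 DE subfamilies stood out from a wider, smaller shift of repeat RNA. Of 440 tested LTR subfamilies 356 were higher (median 0.20, 3 DE, or 0.682%), and so were 119 of 133 LINE and 31 of 34 SINE subfamilies (medians 0.22 and 0.22, none DE). Summed levels overlapped for LTR subfamilies (13600 to 15070 CPM in Ctrl, 14390 to 16200 CPM in dPOLE4). So did those of LINE subfamilies (5745 to 6917 and 6841 to 7243 CPM), while those of SINE did not (19890 to 20560 and 21670 to 23190 CPM). Of the 133 LINE subfamilies 21 were higher without overlap of the groups, beside 19.3% of all tested features in either direction. The SD between replicates of the list median was 0.089, 0.17 and 0.14 for LTR, LINE and SINE. L1Md_T, a young LINE subfamily, had a log2 fold change of 0.26 (adjusted p = 0.0498). MERVL-int and MT2_Mm, the retrovirus of 2-cell-like cells and its LTR, had log2 fold changes of -0.045 and -0.11 and were not DE, and the sign of MERVL-int flipped without Ctrl replicate 1 and without dPOLE4 replicate 2. All 16 tested features of the 2-cell-like list were lower (median -0.26) and none was DE. In 5 of the 16 the groups did not overlap, beside 19.3% of all tested features in either direction. The summed level of the list overlapped (5932 to 7194 CPM in Ctrl, 5701 to 6910 CPM in dPOLE4). Gm4340 and Zscan4c, genes of that state, had log2 fold changes of -0.41 and -0.37 (adjusted p of 0.0398 and 0.0451). In MCM2-2A cells at T60 all 16 tested features of this list were higher (median 0.56, 2 DE). At 96 h in WT cells all 15 tested ones were higher (median 0.63, none DE). The list median was 0.12 at T0, 0.13 at T12 and -0.046 at T24. The share of all counted reads in repeats was 5.85% to 6.10% in Ctrl and 6.29% to 6.67% in dPOLE4, without overlap. A like shift was found in less well annotated RNA: the 337 tested transcripts of the class TEC (to be experimentally tested) had a median of 0.17 and 258 antisense genes one of 0.10, beside -0.0080 for 14071 protein-coding genes. The part of this shift in the repeat values was not tested. No repeat class had a median above 0 at T0, T12 or T24. At T0 the medians were -0.11 for LTR, -0.22 for LINE and -0.13 for SINE subfamilies. In the same order they were -0.014, -0.013 and -0.033 at T12 and -0.025, -0.049 and -0.025 at T24. At 96 h in serum and LIF they were 0.046, -0.019 and 0.035, and in MCM2-2A cells at T60 0.10, 0.064 and 0.014.

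Several of the 7 genes that were higher are known from epithelia. Gabrp, a GABA receptor subunit gene of epithelial tissues (chromosome 11 from 33550781 to 33578959), lay at 13.2, 13.4 and 14.7 CPM in Ctrl and at 25.4, 20.8 and 21.9 CPM in dPOLE4 (log2 fold change 0.71, SE 0.10, adjusted p = 0.00252). Duoxa2, which matures the dual oxidase DUOX2 (chromosome 2 from 122298900 to 122302885), lay at 6.18, 4.25 and 3.60 CPM in Ctrl and at 10.7, 9.20 and 9.03 CPM in dPOLE4 (log2 fold change 0.99, SE 0.18, adjusted p = 0.00965). Slc5a5, the sodium iodide symporter gene (chromosome 8 from 70882889 to 70892757), lay at 14.9, 11.2 and 16.3 CPM in Ctrl and at 24.5, 21.03 and 24.02 CPM in dPOLE4 (log2 fold change 0.70, SE 0.12, adjusted p = 0.00725). Every dPOLE4 library was above every Ctrl library for these 3 genes. Epn3, an epithelial endocytic adaptor gene, Lrrc15, a leucine-rich repeat membrane protein gene, Ttll10, a polyglycylase gene, and the unannotated Gm37795 had log2 fold changes of 0.63, 0.76, 0.92 and 0.65. Just under the fold threshold, Tgm2, a transglutaminase gene, reached 0.55 and Ankrd44 0.52 (adjusted p of 0.00127 for both). In the list of keratins, cadherins and junction genes, Cldn4, a tight junction claudin gene, was the one higher gene with an adjusted p below 0.01 (0.00676, log2 fold change 0.42), while 12 of the 22 tested genes were lower (median -0.031). This list moved in both directions: the groups did not overlap for 8 higher and 6 lower genes, beside 19.3% of all tested features. The higher ones were Cldn4, Krt7, Krt8, Krt18, Itgb4, Cdh1, Epcam and Ocln. The lower ones were Cdh2, Cdh3, Cdh6, Cdh11, Vim and Itgb1. Of 12 tested trophoblast genes, which include epithelial ones, 9 were higher (median 0.16, which moved between 0.036 and 0.25 over the alternatives) and none was DE.

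**Figure D3:**
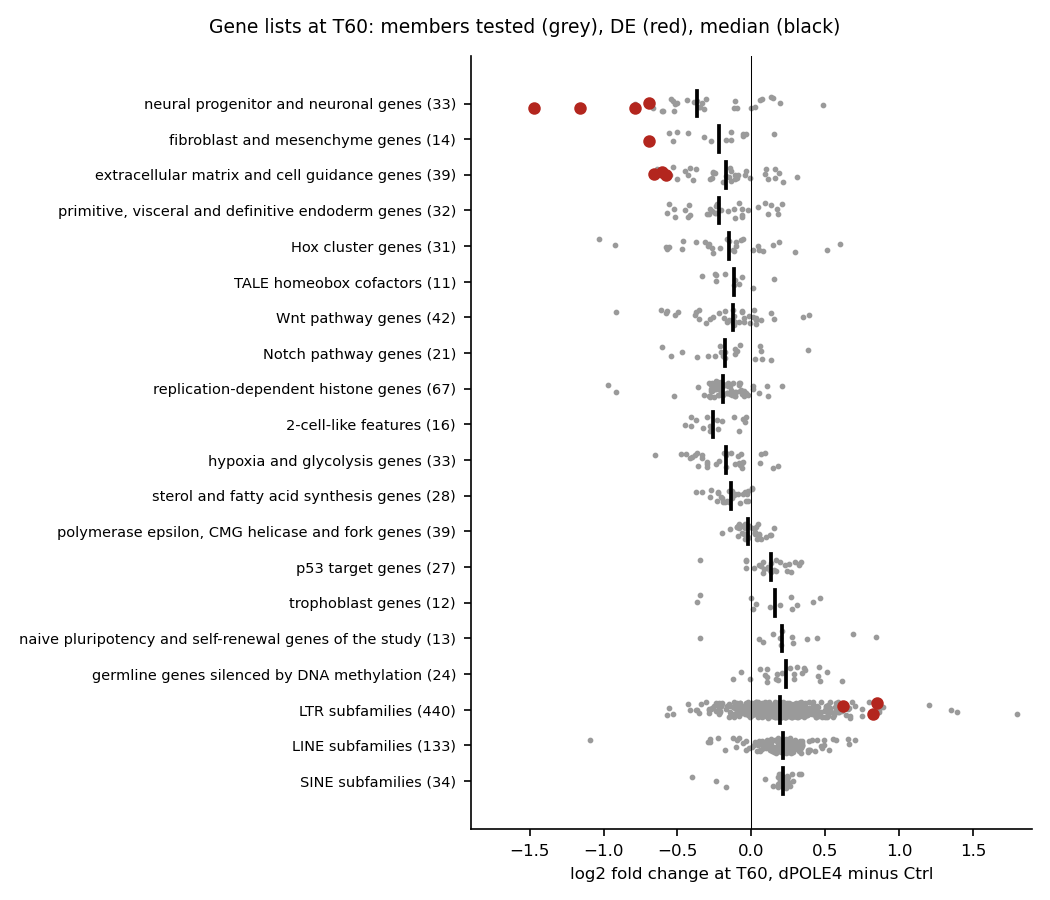
Log2 fold change at T60 (horizontal) of the tested members of 20 gene lists, with the number tested in parentheses, members in grey, DE members in red (4 of the 5 in the neural list) and the median of all tested members as a black bar. The neural list has the lowest median (-0.37), the fork genes centre on -0.020, and the repeat subfamilies and the germline list lie to the right of 0.

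Pluripotency genes did not separate the groups by the test. Of the 13 genes of the study's naive pluripotency list, 12 were higher in dPOLE4 (median 0.21) and none was DE. The study shows this list for the same libraries. Nanog, a core factor of the naive state, lay at 20.03 ± 1.95 CPM (SD, n = 3) in Ctrl and 26.1 ± 3.46 CPM in dPOLE4 (log2 fold change 0.38, adjusted p = 0.0988). Tfcp2l1, also a naive factor, had a log2 fold change of 0.27 (adjusted p = 0.0567), and Sox2, shared by stem cells and neural progenitors, one of -0.35 (adjusted p = 0.0720). The 22 tested other pluripotency genes had a median of -0.0054 and the 7 formative ones one of -0.19, with no DE gene in either.

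The RA pathway itself showed no common direction. Of 20 tested receptor, enzyme and binding protein genes, 9 were higher and 11 lower (median -0.017), and Crabp1, counted in the neural list too, was the DE gene. Cyp26b1, which degrades RA, lay at 262, 240 and 228 CPM in Ctrl and at 287, 307 and 338 CPM in dPOLE4 (log2 fold change 0.35, adjusted p = 0.0171), and Cyp26a1 had a log2 fold change of 0.22 (adjusted p = 0.409). In the 6 early RA response genes of the study the median was -0.0033 and Sox1, also in the neural list, was the DE gene. Of 31 tested Hox genes 22 were lower (median -0.15), and Hoxc4, a gene of the anterior trunk, came closest to DE at -0.56 (adjusted p = 0.00951). Of 11 TALE cofactors, which bind DNA with Hox proteins, 9 were lower (median -0.12, none DE).

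The 39 polymerase epsilon, helicase and fork genes had a median of -0.020, the 23 histone chaperone genes one of 0.023 and the 33 polycomb genes one of 0.000049, with no DE gene. Histone genes were mostly lower, 61 of 67 replication-dependent ones (median -0.19, none DE) and all 11 replacement ones (median -0.16). The groups did not overlap for 30 of the 67, beside 19.3% of all tested features in either direction. H1f0, the linker histone of differentiating cells, lay at 161, 156 and 161 CPM in Ctrl and at 115, 112 and 108 CPM in dPOLE4 (log2 fold change -0.52, adjusted p = 0.000217, below the fold threshold). Also below that threshold, with an adjusted p below 0.01, were Mycn, a MYC family transcription factor gene (-0.57), and Ccnd2, which encodes a D-type cyclin (-0.46). Over the 32 cell cycle genes the median was 0.0022. Lists of other cell types the culture could hold gave no DE gene for endoderm (25 of 32 lower, median -0.22, summed level 7380 to 8937 CPM in Ctrl and 6378 to 7600 CPM in dPOLE4) or blood and endothelium (7 of 9 lower, median -0.24, with the defining markers Ptprc, Gata1 and Hbb-bs too low to test). Pdgfra, given above with the fibroblast list, is in the endoderm list too. Mesoderm genes were divided (10 of 20 lower, median 0.015, none DE), and their median changed sign with the setting (-0.17 to 0.13). The groups did not overlap for 6 lower and 1 higher of the 20, beside 19.3% of all tested features in either direction. Twist1 had the lowest p of this list (log2 fold change -0.66, adjusted p = 0.011). Of 13 tested neural crest genes 9 were lower (median -0.034), and Msx1 was the DE gene. The part of a change in cell makeup in the neural and mesenchymal values was not tested.

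Many of the lower genes belong to the late part of the RA course. In Ctrl, Nr2f1 went from 0.0188 ± 0.0326 CPM (SD, n = 3) at T0 and 0.607 ± 0.0811 CPM at T24 to 28.3 ± 3.90 CPM at T60, and in dPOLE4 it reached 16.2 ± 1.73 CPM. Igfbp5 stayed between 1.198 and 1.63 CPM up to T24 in Ctrl and then reached 171 ± 12.7 CPM, against 82.5 ± 11.5 CPM in dPOLE4. Crabp1 lay between 7.25 and 7.58 CPM up to T24 in Ctrl, ended at 11.98 ± 1.78 CPM, and ended at 5.24 ± 1.204 CPM in dPOLE4. For these 3 genes the mean of dPOLE4 at T24 lay within 1 dPOLE4 SD of the Ctrl mean, and at T60 the groups did not overlap. Sox1 and Msx1 peaked at T24 instead. Msx1 lay at 39.5 ± 3.27 CPM in Ctrl and 24.5 ± 3.24 CPM in dPOLE4 at T24, a log2 fold change of -0.67 that was not DE (adjusted p = 0.102). Slc16a3 was also lower in dPOLE4 before T60 without being DE. It lay at 155 ± 24.6 CPM in Ctrl and 90.3 ± 16.9 CPM in dPOLE4 at T12. At T24 it lay at 150 ± 13.2 CPM and 90.0 ± 21.4 CPM. MMVL30-int went from 18.1 ± 1.16 CPM at T0 to 36.9 ± 3.32 CPM at T24 and 64.6 ± 4.10 CPM at T60 in Ctrl, and to 115 ± 4.49 CPM at T60 in dPOLE4.

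**Figure D4:**
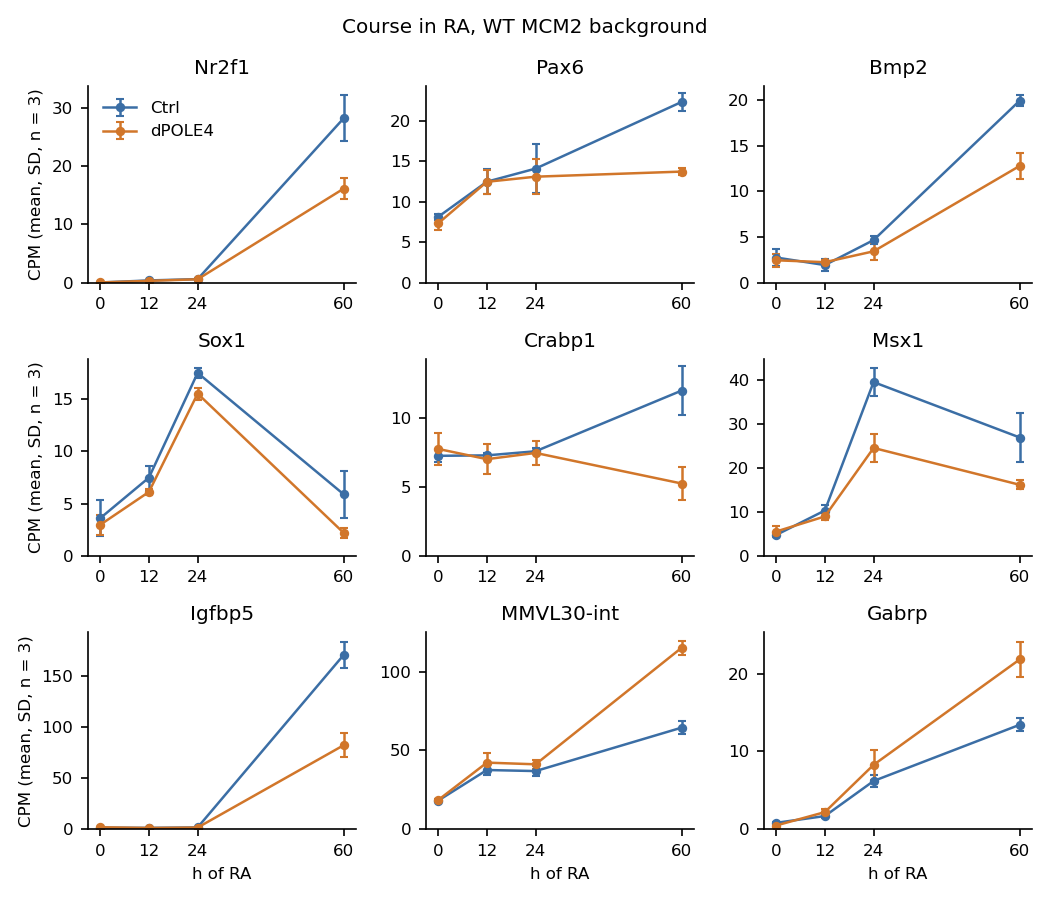
Mean CPM with SD (n = 3, vertical, from 0) over 0, 12, 24 and 60 h of RA (horizontal) of 9 features DE at T60, with Ctrl in blue and dPOLE4 in orange. The groups lie apart at 60 h in each panel, and Msx1 is also lower in dPOLE4 at 24 h (24.5 against 39.5 CPM).

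The response to RA was measured in libraries outside the T60 comparison, as Ctrl T24 against Ctrl T0, where 21.8% of the tested features were DE and 13.5% rose. Of the 23 genes lower at T60, 13 rose in that comparison (56.5%) and 2 fell, Slc1a3 and Ntn1, with a median log2 fold change of 0.79. Of the 10 features higher at T60, 9 were tested there and 4 rose. Genes of both directions thus respond to RA, among them Gabrp with a log2 fold change of 2.92 and Msx1 with one of 3.06. Of all features tested in both comparisons, 14.3% rose and 7.01% fell.

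At the earlier times and in undifferentiated cells the same test, which does not pair libraries, gave no DE feature. At T0, T12, T24 and after 96 h of depletion in serum and LIF, edgeR called 0 features, with 2069, 1150, 1451 and 2164 features at an unadjusted p below 0.05, and DESeq2 called 0, 2, 15 and 25. With the replicate number as a block, which pairs the libraries, the counts were 6, 3, 14 and 142. At each of these times all 6 libraries, as deviations from group means, correlated best with the same-numbered library of the other group. The test without the block leaves this pairing out. At T24, 30 of the 32 tested features of the 33 had the direction of T60 (93.8%, beside 54.7% of all features), with medians of 0.36 for those higher at T60 and -0.34 for those lower. The shares were 51.7% at T0 (46.1% of all features), 61.3% at T12 (58.1%) and 72.4% at 96 h (52.0%). The effect at T60 was not shown to differ from that at T24: the test of the difference called 0 features in edgeR, with 1304 at an unadjusted p below 0.05, and 1 in DESeq2. The lowest adjusted p among the 33 was 0.0700, for MMVL30-int.

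In MCM2-2A cells at T60, POLE4 depletion changed 416 of 18473 features (2.25%), 197 higher and 219 lower. Without Ctrl MCM2-2A replicate 2 or 3 or dPOLE4 MCM2-2A replicate 2 the count was 215, 84 or 148. Of the 33 features, 30 had the same direction there (90.9%, beside 64.0% of all features), and 16 were DE, all in the same direction. Among the 16 were Igfbp5 (-1.16), Nr2f1 (-1.42), Pax6 (-0.88), Col3a1 (-1.32) and Lrrc15 (1.07). Crabp1, at -1.16 in the WT background, had a log2 fold change of -0.015 in MCM2-2A cells. The difference between backgrounds did not pass for Crabp1 (adjusted p = 0.102), nor for any other of the 33, with the lowest adjusted p at 0.0267 for Duoxa2. MMVL30-int reached 0.56 in MCM2-2A cells (adjusted p = 0.00398, below the fold threshold), and RLTR10C 0.068. The neural list had a median of -0.28 there, with 6 of 34 genes DE and lower.

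**Figure D5:**
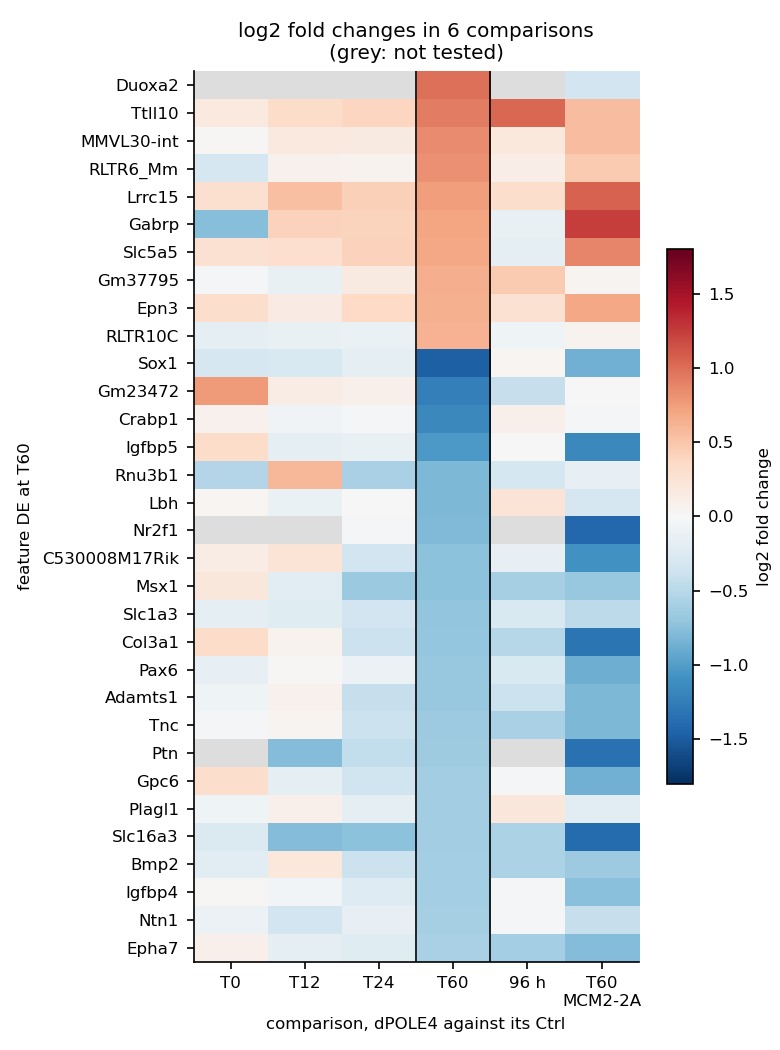
Log2 fold changes between dPOLE4 and its Ctrl (colour, red for higher and blue for lower, grey where not tested) of 32 of the 33 features DE at T60 (rows) in 6 comparisons (columns), with the T60 comparison between the black lines. T24 and the MCM2-2A cells at T60 share the colour of T60 for 29 of 31 and 30 of 32 of the features shown.

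Promoters of the DE genes were read from RefSeq on GRCm38.p6, 250 bases before to 50 after each start, and 5 of the 7 higher and 16 of the 23 lower genes had an entry, with 20 promoters for the lower genes. The letters TATAAA, searched on both strands, were in 7 of the 20 (35%), which come from 6 genes since 2 overlapping promoters of Tnc both count, in 1 of 5 for the higher genes and in 7.15% of the promoters of all tested genes. On the strand of the gene and 25 to 35 bases before the start, where a TATA box lies, they were in 3 of 20 and 1 of 5, beside 1.02% of all. The 4 promoters that carry it are shown for the 120 bases before the start, 5′ to 3′ on the strand of the gene, with TATAAA in capitals, at chr2:122298780-122298899 on the plus strand (Duoxa2, higher), chr16:85803114-85803233 on the minus strand (Adamts1, lower), chr11:99041124-99041243 on the plus strand (Igfbp4, lower) and chr17:72918185-72918304 on the plus strand (Lbh, lower).
Duoxa2: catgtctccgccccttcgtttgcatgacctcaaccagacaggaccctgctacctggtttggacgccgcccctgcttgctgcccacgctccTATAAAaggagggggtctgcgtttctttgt
Adamts1: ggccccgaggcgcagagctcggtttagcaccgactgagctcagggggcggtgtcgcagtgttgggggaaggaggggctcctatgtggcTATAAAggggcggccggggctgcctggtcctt
Igfbp4: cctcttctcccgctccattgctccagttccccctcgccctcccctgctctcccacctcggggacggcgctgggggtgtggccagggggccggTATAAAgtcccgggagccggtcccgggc
Lbh: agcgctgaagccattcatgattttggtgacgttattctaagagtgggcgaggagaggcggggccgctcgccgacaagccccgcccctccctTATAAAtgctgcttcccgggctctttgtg
The letters begin 30, 32, 28 and 29 bases before the start in these 4. AGGTCA, the core element that retinoic acid receptors bind, was in 0 of 20 promoters of lower genes and 2 of 5 of higher genes on either strand, beside 12.4% of all. A match is a description of letters in a short window, and no match says nothing of binding elsewhere.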

How the data were processed

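RNA-seq libraries of mESCs were analysed from deposited raw counts per gene and repeat subfamily. Per the study's methods and the submitters' processing notes, the authors trimmed reads with cutadapt 4.2, aligned them to mm10 with STAR keeping multiple alignments, and made these counts with TEcount from GENCODE genes and a repeat annotation; replicates were not pooled. The counts were tested here with edgeR 4.0.16 in R 4.3.3 (quasi-likelihood test, filterByExpr with a minimum count of 10, TMM over genes and repeats, Benjamini-Hochberg adjustment), with the 6 T60 libraries alone in the fit. DE was an adjusted p below 0.01 and a log2 fold change beyond 0.58 in size. DESeq2 1.42.0, other filters and scalings, other groups in the fit, a replicate block and leaving out each library were alternatives. Of 55487 genes, 55227 had a GENCODE M21 symbol, which also gave positions. On simulated counts for 16850 features, 99 of 100 genes changed by 0.8 and 100 of 100 changed by 1.6 (log2) were called, with 1 false call. The changed genes all had a mean above 100 counts, and the simulated spread was that fitted to these same libraries. The rates therefore do not cover low genes or a spread beyond that of these libraries.

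Named genes were Pole4 and Mcm2, up to 12 features per direction by fold change whose groups do not overlap, filled by p, up to 4 DE and 4 other members of each list by p and level, and genes the study names for RA. Members and lists were chosen with earlier results of these data known. The summed level of a list takes in its untested members. At T0, T12, T24 and 96 h the same-numbered libraries deviated together, which the data and not the labels show. Their correlations were 0.11 to 0.23, 0.073 to 0.16, 0.095 to 0.18 and 0.19 to 0.38. The study's own tests were not used. Some genes covered by the rule are not reported here, and counts over all features include them.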

Additional observations from a re-analysis of the deposited data

Results flagged for a closer look

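The effect of POLE4 depletion at T60 differed between the WT and the MCM2-2A background for 19 features by edgeR's test of the difference (0.1% of those tested), and none of them is among the 33 DE features of the WT comparison. Of the named genes, Col1a2 differed by 1.201 on the log2 scale (WT minus MCM2-2A), with log2 fold changes of -0.50 in WT and -1.72 in MCM2-2A cells (adjusted p = 0.00474). Nr2f2, the orphan receptor COUP-TF2, differed by 0.71 (-0.33 and -1.06, adjusted p = 0.00888), and Meis2, a TALE cofactor, by 0.72 (-0.24 and -0.97, adjusted p = 0.0057). Cyp26b1 differed by 0.89 and was on opposite sides of 0 (0.35 and -0.55, adjusted p = 0.00296). The count was 1 to 38 with 1 library left out, and 1 without Ctrl replicate 3 of either background.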

How the results depend on the processing

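Of the 33 DE features at T60, none changed sign in 15 other settings, which do not include glmTreat. In all 9 of these settings that kept every library 8 stayed DE, and 2 (Igfbp5 and MMVL30-int) did so in all 15. The count was 38 with DESeq2, 100 with no filter on low counts, 13 with all 4 groups at T60 in the fit, 71 with no fold threshold, 69 at an adjusted p below 0.05 and 0 with glmTreat, and 6 to 41 with a library left out. Same-numbered T60 libraries did not deviate together (correlations from -0.025 to -0.00092), and the replicate block gave 47 DE features. With the block the counts were 6 at T0, 3 at T12, 14 at T24, 142 at 96 h and 45 for the difference between backgrounds. With no filter they were 27 at T0, 15 at T12, 35 at T24, 119 at 96 h, 808 in MCM2-2A cells, 34 for the difference between T60 and T24 and 193 for that between backgrounds. DESeq2 gave 2 at T12, 15 at T24, 25 at 96 h, 1 for the difference between times and 81 between backgrounds. With a library left out the counts were 0 to 5 at T0, 0 to 4 at T12, 0 to 2 at T24, 0 at 96 h, 84 (without Ctrl replicate 3) to 573 in MCM2-2A cells, 0 for the difference between times and 1 to 38 between backgrounds. The causes were not tested. Signs flipped for Mcm2 (0.019 and 0.0050 without Ctrl replicates 1 and 3, range -0.068 to 0.019 with a library left out), Pole4 (-0.0080 without dPOLE4 replicate 2, range -0.0080 to 0.13) and MERVL-int (0.021 without Ctrl replicate 1 and 0.014 without dPOLE4 replicate 2, range -0.12 to 0.021), none of them DE. With 3 libraries a group, changes of low genes such as Sox1 rest on few reads. List medians moved with the setting, for LINE subfamilies between 0.10 and 0.35, SINE 0.13 and 0.32, LTR 0.14 and 0.26, endoderm genes -0.28 and -0.11, formative genes -0.26 and -0.081 and neural genes -0.39 and -0.34. Other medians changed sign, for early RA response genes (-0.074 to 0.18), mesoderm (-0.17 to 0.13) and cell cycle genes (-0.041 to 0.0077). So did those of other pluripotency (-0.057 to 0.045), polycomb (-0.018 to 0.021) and neural crest genes (-0.15 to 0.029). Those of the RA pathway, histone chaperone and keratin lists changed sign in 1 setting each.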

Other observations

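Several other lists had a common direction at T60 without a DE gene. Of 33 tested hypoxia and glycolysis genes 28 were lower (median -0.17), among them Tpi1, a glycolytic enzyme gene (-0.40, adjusted p = 0.00951), with a summed level of 7983 to 9592 CPM in Ctrl and 6865 to 7574 CPM in dPOLE4. This list was already lower at T12 (31 of 34 genes, median -0.23) and T24 (30 of 34 genes, median -0.23), with no DE gene. Its median was -0.0062 at T0 and -0.077 at 96 h in serum and LIF. Of 28 sterol and fatty acid synthesis genes 26 were lower (median -0.14). Of 24 germline genes kept silent by DNA methylation 21 were higher (median 0.24), among them Rhox6 (0.46, adjusted p = 0.0173) and Rhox9 (0.51, adjusted p = 0.0201). Of 27 p53 target genes 23 were higher (median 0.13), with Mdm2, the p53 ubiquitin ligase gene, at 0.24 (adjusted p = 0.0391), and of 19 interferon and innate immune genes 16 were higher (median 0.19). Members of a list share libraries and are not independent, and 49.52% of all tested features were lower.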
